A study of Mus musculus with 19 samples.

Results

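The interferon response genes described here are 41 genes that cells switch on after interferon binds its receptor, measured in the left prelimbic cortex of mice. They were taken by name from the table of gene counts, and a gene was kept where its count was above 0 in at least 4 of the 19 libraries. All 41 of the 41 listed genes met this rule, out of 20938 genes in the table, and all 41 were among the 16417 genes with enough counts to be tested. The rule uses no difference between groups.

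The 19 libraries fall into 4 groups by their titles. Control mice (6 libraries) were given saline, and SCZ mice (4 libraries) were given MK-801 at 0.2 mg/kg, injected into the abdomen each day for 2 weeks. MK-801 blocks the NMDA receptor and is used to produce schizophrenia-like behaviour in rodents. In Control+c-MSST (5 libraries) and SCZ+c-MSST (4 libraries), mice on the saline or MK-801 regimen also had 1 stereotactic injection of ferumoxytol, a superparamagnetic iron oxide (SPIO) nanoparticle, into the left prelimbic cortex and were then kept under a pulsed magnetic field. Tissue was taken on day 3 after surgery. The labels give no strain, sex, age or batch, and do not say whether Control and SCZ mice had surgery, so nanoparticle, field and surgery cannot be told apart here. The series text counts its groups in mice, but no label ties a library to an animal. If libraries of a group shared an animal, p-values would measure only the spread between those libraries.

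Type I interferons bind the IFNAR receptor, and its kinases JAK1 and TYK2 phosphorylate STAT proteins such as STAT2, which with IRF9 binds a DNA element, the interferon-stimulated response element (ISRE). Interferon gamma acts through its own receptor, and many genes it induces hold another element, the gamma-activated site (GAS). In the brain, microglia, astrocytes, endothelial cells and neurons can all respond. The induced proteins sense and block viruses, and a weak tonic form of the response runs without infection.

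The ISRE lies in the promoters of many of these genes. RefSeq promoters (GRCm38.p6, 250 bases before to 50 after the start of transcription) were at hand for 30 of the 41 genes. The ISRE core (GAAA, any 2 bases, GAAA), searched on both strands with overlapping matches allowed, lay in the promoters of 15 of these 30 genes, against 1079 of 27025 genes (3.99%) in the whole promoter table. The GAS core TTCNNNGAA, searched likewise, lay in those of 7 of the 30 genes (23.3%), against 9.55% of all genes. A match describes letters in this window and is not a measured binding site. The 4 promoters below are shown because they hold the ISRE core and belong to genes whose levels are given below in all 4 groups. Capitals mark the core or its reverse complement, and each sequence runs 5′ to 3′ on the strand of its gene.
Gbp2, chr3:142620413-142620712, plus strand: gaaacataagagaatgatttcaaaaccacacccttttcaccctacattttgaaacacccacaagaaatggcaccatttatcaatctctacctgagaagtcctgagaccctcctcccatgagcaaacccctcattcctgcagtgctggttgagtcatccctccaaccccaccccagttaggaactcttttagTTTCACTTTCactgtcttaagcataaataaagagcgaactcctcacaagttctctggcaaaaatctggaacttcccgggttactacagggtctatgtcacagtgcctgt
Stat2, chr10:128270248-128270547, plus strand: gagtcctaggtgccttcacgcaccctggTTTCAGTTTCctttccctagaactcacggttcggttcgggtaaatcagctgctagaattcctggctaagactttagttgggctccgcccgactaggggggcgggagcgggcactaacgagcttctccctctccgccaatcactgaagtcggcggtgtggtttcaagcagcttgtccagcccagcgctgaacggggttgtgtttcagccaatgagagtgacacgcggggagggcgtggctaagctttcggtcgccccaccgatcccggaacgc
Isg15, chr4:156200769-156201068, minus strand: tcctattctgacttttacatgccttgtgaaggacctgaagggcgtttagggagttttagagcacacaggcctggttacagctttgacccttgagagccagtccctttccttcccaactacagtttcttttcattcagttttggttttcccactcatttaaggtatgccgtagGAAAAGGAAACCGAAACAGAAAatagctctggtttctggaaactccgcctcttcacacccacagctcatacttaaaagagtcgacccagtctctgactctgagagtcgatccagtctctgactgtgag
Ifit3, chr19:34583279-34583578, plus strand: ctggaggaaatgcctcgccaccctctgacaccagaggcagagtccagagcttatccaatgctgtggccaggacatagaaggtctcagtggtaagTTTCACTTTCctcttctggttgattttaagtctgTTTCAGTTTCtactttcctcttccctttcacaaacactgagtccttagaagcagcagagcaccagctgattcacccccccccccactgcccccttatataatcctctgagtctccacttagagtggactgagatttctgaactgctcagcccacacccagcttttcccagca
The core began 59 bases before the start in Gbp2, a GTPase gene, and 222 bases before it in Stat2. Isg15 held 3 overlapping cores, beginning 78, 72 and 66 bases before the start, and Ifit3 held 2, beginning 156 and 122 bases before it. The promoters of Irf7, Irf9, Xaf1, Lgals3bp, Cmpk2, Samd9l and Herc6 held no ISRE core in this window.

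In the mm10 build the 41 genes lie on 16 chromosomes, and 13 of them have another of the 41 within 100 kb (GENCODE M21 positions). Ifit2, Ifit3 and Ifit1 follow one another on chromosome 19 between 34550694 and 34650009. Gbp7, Gbp3 and Gbp2 do so on chromosome 3 between 142530342 and 142638008, and Rsad2 and Cmpk2 on chromosome 12 between 26442746 and 26479837. Parp9 (chromosome 16, 35938470 to 35972605, plus strand) overlaps Dtx3l (35926511 to 35939151, minus strand). The sources used here do not give whether counting used strand, so reads of this shared stretch are uncertain. The Gbp, Ifit and Oas genes have close relatives, and Mx2 is annotated as a polymorphic pseudogene, so their levels depend on how shared reads were split.

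Total counts were 50140626 to 66818266 in Control, 60577337 to 72866386 in Control+c-MSST, 65498768 to 82416746 in SCZ and 66828543 to 75090222 in SCZ+c-MSST. Levels are given below in CPM, the counts scaled to a common library total after TMM normalization. Slc17a7, the vesicular glutamate transporter of cortical excitatory neurons, was at 859 to 1462 CPM in all 19 libraries. The summed markers of the neighbouring striatum varied more, from 139 to 1912 CPM. In bulk tissue, fewer cells of a type and less RNA per cell cannot be told apart.

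Most of the interferon response genes were expressed at a low level. Per length, in FPKM averaged over the 19 libraries, Cmpk2 (a mitochondrial nucleotide kinase) was highest at 10.99, followed by Stat2 at 6.80 and Ifit3 at 6.53. Zbp1, a sensor of Z-form nucleic acid, was lowest at 0.0530 FPKM, below Mx1, a dynamin-like antiviral GTPase, at 0.0609 FPKM. Counts were above 0 in every library for 39 of the 41 genes. Mx1 and Zbp1 had no count in Control replicate 1, where 0 counts allow a level of up to 0.0620 CPM, for counting error only.

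Libraries of the same group differed widely in these genes. Control replicate 4 held the highest CPM of the 19 libraries for 36 of the 41 interferon response genes (87.8%), and for 781 of all 16417 genes tested (4.76%). Of the 41 genes, 40 lay above their own 19-library median there, and the median ratio to that median was 2.43. The next highest median ratios were 1.35 in Control replicate 7, 1.34 in SCZ+c-MSST replicate 4 and 1.22 in Control replicate 5, and Control replicate 1 was lowest at 0.746. The Control group thus held both the highest and the lowest library. Control replicate 1 held the lowest CPM for 11 of the 41 genes and for 10.5% of all genes tested. It also held the highest CPM for 10.5% of all genes, and its total of 50140626 counts was the smallest. Of the 5 genes that were not highest in Control replicate 4, Stat2 and Dtx3l were highest in Control replicate 7, Irf1 and Herc6 in Control+c-MSST replicate 6 and Mx1 in SCZ+c-MSST replicate 4. Each comparison that uses Control replicate 4 is given below with and without it. This library was picked out by the values of these same genes. Leaving it out therefore lowers the Control mean of most of them, and the fits without it are a description only.

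**Figure D1:**
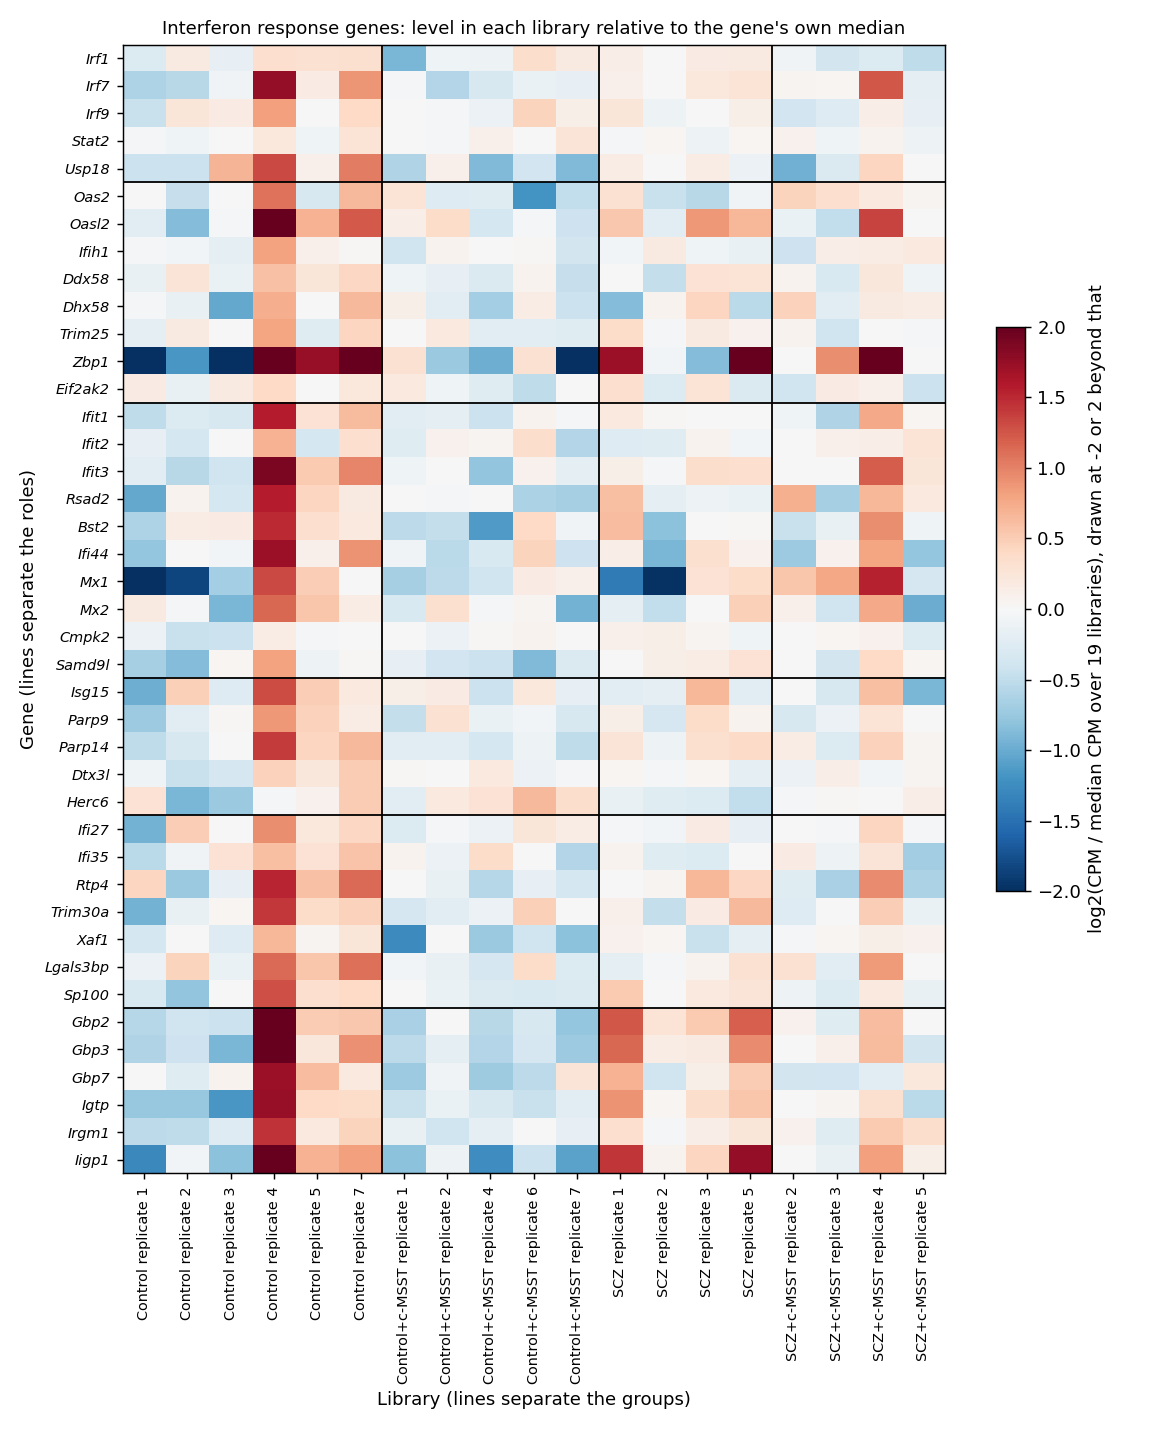
Log2 of CPM over the gene's own median for the 41 interferon response genes (rows, by role) in the 19 libraries (columns, by group), with values beyond -2 or 2 drawn at those limits. The column of Control replicate 4 is above the median for 40 of 41 genes, and columns with most genes above the median also stand at Control replicate 7 (39 of 41) and SCZ+c-MSST replicate 4 (36 of 41).

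The standard deviation of log2 CPM within groups had a median of 0.47 over the 41 genes. It was lowest for Stat2 at 0.12 and highest for Zbp1 at 1.80. Over all genes tested the median was 0.18, and it was 0.22 over the 9208 tested genes in the same range of mean CPM.

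None of 13 lists of cell type and region markers summed highest in Control replicate 4. Microglial markers summed to 354 CPM there (rank 6 of 19), monocyte and macrophage markers to 27.8 CPM (rank 6) and endothelial markers to 252 CPM (rank 13). Neutrophil markers summed to 0.820 CPM, with 4 of 8 at 0. The 7 markers of T and NK cells summed to 19.5 CPM (rank 5), most of it from Cd4, while Cd3d, Cd3g and Gzma had no count in that library. Astrocyte markers (6951 CPM, rank 3) and oligodendrocyte markers (3890 CPM, rank 2) were near the top of their ranges, and neuronal markers (8262 CPM, rank 17) near the bottom. Striatal markers (1486 CPM, rank 4) were the highest of the Control libraries, and blood markers (145 CPM, rank 19) the lowest of all libraries. The part of these cells and regions in the interferon values was not tested.

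Stat2, the STAT protein particular to type I and type III interferon signalling, had 34.7, 36.3 and 44.6 CPM as the lowest, median and highest of the 6 Control libraries. It had 36.9, 36.1, 39.5, 37.2 and 44.0 CPM in Control+c-MSST, 36.3, 38.1, 34.4 and 37.7 CPM in SCZ, and 39.3, 34.7, 38.7 and 34.6 CPM in SCZ+c-MSST. The 4 groups overlapped, and no library stood apart. Irf9, the DNA-binding partner of STAT2, had 6.53, 10.3 and 15.6 CPM as lowest, median and highest in Control, the highest in Control replicate 4. Its values were 8.84, 8.71, 8.20, 12.2 and 9.65 CPM in Control+c-MSST, 10.5, 8.25, 8.86 and 9.64 CPM in SCZ, and 6.84, 7.46, 9.74 and 7.99 CPM in SCZ+c-MSST. All groups overlapped for Irf9 as well.

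Irf7, the transcription factor that amplifies type I interferon production, had 1.90, 2.00, 2.78, 9.89, 3.29 and 5.40 CPM in Control replicates 1, 2, 3, 4, 5 and 7. It had 2.86, 1.94, 2.35, 2.67 and 2.61 CPM in Control+c-MSST, 3.13, 2.93, 3.38 and 3.52 CPM in SCZ, and 3.06, 3.00, 6.90 and 2.56 CPM in SCZ+c-MSST. The highest and second-highest libraries, Control replicate 4 and SCZ+c-MSST replicate 4, belonged to different groups. Usp18, an inhibitor of signalling at IFNAR that also removes ISG15 from proteins, had 0.909, 0.905, 1.94, 3.05, 1.3 and 2.48 CPM in Control and 0.807, 1.31, 0.663, 0.933 and 0.659 CPM in Control+c-MSST. It had 1.35, 1.22, 1.34 and 1.13 CPM in SCZ and 0.626, 0.994, 1.64 and 1.22 CPM in SCZ+c-MSST. Usp18 overlapped in every comparison, with 3 Control libraries (replicates 3, 4 and 7) above all others.

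Irf1, a factor induced mainly by interferon gamma, had 6.92, 9.84 and 10.5 CPM as lowest, median and highest in Control. It had 4.42, 7.86, 7.78, 10.6 and 9.46 CPM in Control+c-MSST, 9.10, 8.33, 9.38 and 9.39 CPM in SCZ, and 7.92, 6.48, 6.86 and 5.89 CPM in SCZ+c-MSST. All 4 SCZ+c-MSST libraries lay below all 4 SCZ libraries, while Control and Control+c-MSST overlapped.

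Among the antiviral effectors, Ifit3, which works in a complex with the RNA-binding IFIT1, had 6.74, 5.37, 5.97, 28.97, 11.3 and 15.4 CPM in Control replicates 1, 2, 3, 4, 5 and 7. It had 7.42, 7.86, 4.57, 8.37 and 6.97 CPM in Control+c-MSST, 8.56, 7.77, 10.0 and 9.93 CPM in SCZ, and 7.81, 7.80, 18.2 and 9.25 CPM in SCZ+c-MSST. Control replicate 4 was at 3.69 times the 19-library median for Ifit3, and SCZ+c-MSST replicate 4 came second. Cmpk2 differed little between libraries, with 16.4, 21.2 and 25.0 CPM as lowest, median and highest in Control. It had 22.4, 20.7, 22.7, 23.5 and 22.6 CPM in Control+c-MSST, 24.0, 24.4, 23.4 and 21.2 CPM in SCZ, and 22.3, 23.1, 23.9 and 18.7 CPM in SCZ+c-MSST. Rsad2 (viperin), the neighbour of Cmpk2 in the genome, stood at 6.47 CPM in Control replicate 4 and at 2.96 CPM or less in the other Control libraries.

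Samd9l, an inhibitor of viral replication, had 5.11, 9.08 and 16.2 CPM as lowest, median and highest in Control. Its values were 8.34, 7.17, 6.90, 5.02 and 7.58 CPM in Control+c-MSST, 9.31, 10.1, 10.3 and 11.4 CPM in SCZ, and 9.38, 7.24, 12.3 and 9.52 CPM in SCZ+c-MSST. The groups overlapped in every comparison of the design. Mx1 was near the limit of detection in several libraries, with 0, 0.134, 0.299, 1.19, 0.668 and 0.477 CPM in Control and 0.303, 0.330, 0.362, 0.533 and 0.510 CPM in Control+c-MSST. It had 0.179, 0.121, 0.584 and 0.616 CPM in SCZ and 0.701, 0.815, 1.39 and 0.379 CPM in SCZ+c-MSST. For Mx1 all 4 groups overlapped.

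Oas2, an enzyme whose product activates RNase L, had 1.51, 1.08, 1.5, 3.16, 1.19 and 2.34 CPM in Control and 1.82, 1.25, 1.27, 0.652 and 1.06 CPM in Control+c-MSST. It had 1.86, 1.10, 1.02 and 1.43 CPM in SCZ and 2.03, 1.88, 1.72 and 1.56 CPM in SCZ+c-MSST, again with overlap between all groups. Each of the 8 RNA and nucleic acid sensors and effectors (Oas2, Oasl2, Ifih1, Ddx58, Dhx58, Trim25, Zbp1 and the kinase Eif2ak2) was highest in Control replicate 4.

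Isg15, a ubiquitin-like protein that is attached to other proteins, had 0.599, 1.49 and 2.90 CPM as lowest, median and highest in Control. It had 1.28, 1.32, 0.874, 1.36 and 1.05 CPM in Control+c-MSST, 1.02, 1.03, 1.87 and 1.01 CPM in SCZ, and 1.18, 0.939, 1.79 and 0.623 CPM in SCZ+c-MSST. The ranges overlapped in every comparison. Herc6, the main ligase for ISG15 in mice, had 26.5, 11.6, 12.9, 21.4, 22.9 and 30.9 CPM in Control and 18.6, 24.8, 26.6, 34.0 and 27.6 CPM in Control+c-MSST. It had 19.6, 18.4, 18.0 and 15.5 CPM in SCZ and 21.2, 22.1, 21.7 and 23.8 CPM in SCZ+c-MSST. All 4 SCZ libraries lay below all 4 SCZ+c-MSST libraries for Herc6, and Control replicate 4 lay inside the Control range.

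The interferon-inducible GTPases act on the membranes of vacuoles that hold pathogens. Gbp2 had 2.64, 2.98, 2.93, 20.8, 5.61 and 5.69 CPM in Control replicates 1, 2, 3, 4, 5 and 7, and 2.52, 3.94, 2.68, 3.15 and 2.31 CPM in Control+c-MSST. It had 9.35, 4.78, 5.66 and 9.03 CPM in SCZ replicates 1, 2, 3 and 5, and 4.16, 3.33, 6.02 and 3.94 CPM in SCZ+c-MSST. Control replicate 4 was highest, and SCZ replicates 1 and 5 came next. Iigp1, an immunity-related GTPase, had 0.950, 2.24, 1.32, 14.3, 3.75 and 4.12 CPM in Control and 1.31, 2.17, 0.980, 1.73 and 1.11 CPM in Control+c-MSST. It had 6.30, 2.44, 3.13 and 7.86 CPM in SCZ and 2.33, 2.10, 4.12 and 2.52 CPM in SCZ+c-MSST. The highest libraries were Control replicate 4 and SCZ replicates 5 and 1, as for Gbp2.

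Over the 6 GTPases (Gbp2, Gbp3, Gbp7, Igtp, Irgm1 and Iigp1) the median ratio to the gene's own median was 3.86 in Control replicate 4, 2.04 in SCZ replicate 1 and 1.70 in SCZ replicate 5. The 10 antiviral effectors had a median ratio of 2.65 in Control replicate 4, of 1.08 in SCZ replicate 1 and of 1.04 in SCZ replicate 5. In SCZ+c-MSST replicate 4 the antiviral effectors had 1.68 and the GTPases 1.48. Neither set was above 1.06 in any Control+c-MSST library. T and NK cell markers summed to 30.9 CPM in SCZ replicate 1 (rank 1) and to 21.1 CPM in SCZ replicate 5 (rank 4). Most of this came from Cd4, so the sum mainly follows 1 gene. Striatal markers were also high in these libraries, at 1830 CPM (rank 2) and 1600 CPM (rank 3). Control replicate 3 was lowest for either list (rank 19). The part of either list in the GTPase values was not tested.

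**Figure D2:**
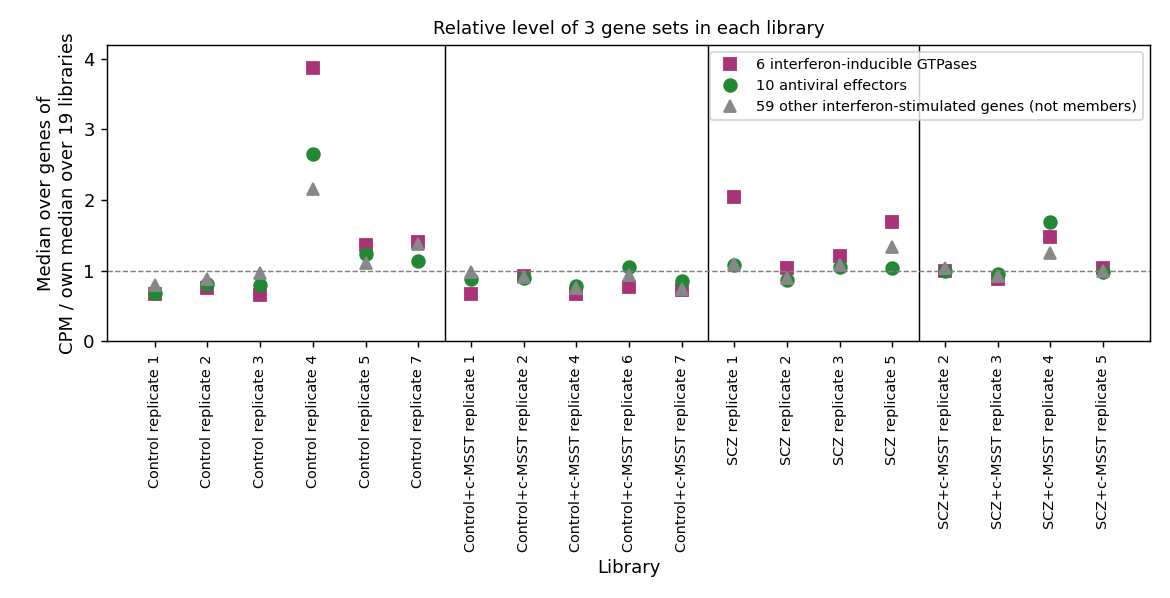
Median over genes of CPM divided by the gene's own 19-library median, in each library, for the 6 interferon-inducible GTPases, the 10 antiviral effectors and 59 further interferon-stimulated genes outside the 41. The GTPases reach 3.86 in Control replicate 4 and 2.04 in SCZ replicate 1, where the antiviral effectors stand at 1.08.

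Lgals3bp, a secreted glycoprotein that binds galectins, had 13.9, 20.6, 13.8, 32.9, 22.2 and 32.3 CPM in Control and 14.5, 13.6, 11.9, 19.4 and 12.5 CPM in Control+c-MSST. It had 13.2, 14.9, 15.9 and 18.7 CPM in SCZ and 18.7, 12.9, 27.3 and 15.1 CPM in SCZ+c-MSST. Control replicates 4 and 7 and SCZ+c-MSST replicate 4 were the highest libraries. Xaf1, a protein that promotes cell death, had 2.11, 2.69, 2.24, 4.24, 2.80 and 3.19 CPM in Control and 1.11, 2.68, 1.61, 2.03 and 1.51 CPM in Control+c-MSST. It had 2.86, 2.76, 1.97 and 2.34 CPM in SCZ and 2.65, 2.76, 2.90 and 2.86 CPM in SCZ+c-MSST. Control+c-MSST replicate 2 was the only Control+c-MSST library inside the SCZ+c-MSST range. Ifi35, a leucine zipper protein, had 1.47, 2.60 and 3.23 CPM as lowest, median and highest in Control. It had 2.24, 1.95, 2.74, 2.12 and 1.41 CPM in Control+c-MSST, 2.24, 1.80, 1.76 and 2.13 CPM in SCZ, and 2.37, 1.97, 2.55 and 1.31 CPM in SCZ+c-MSST, which overlapped throughout.

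**Figure D3:**
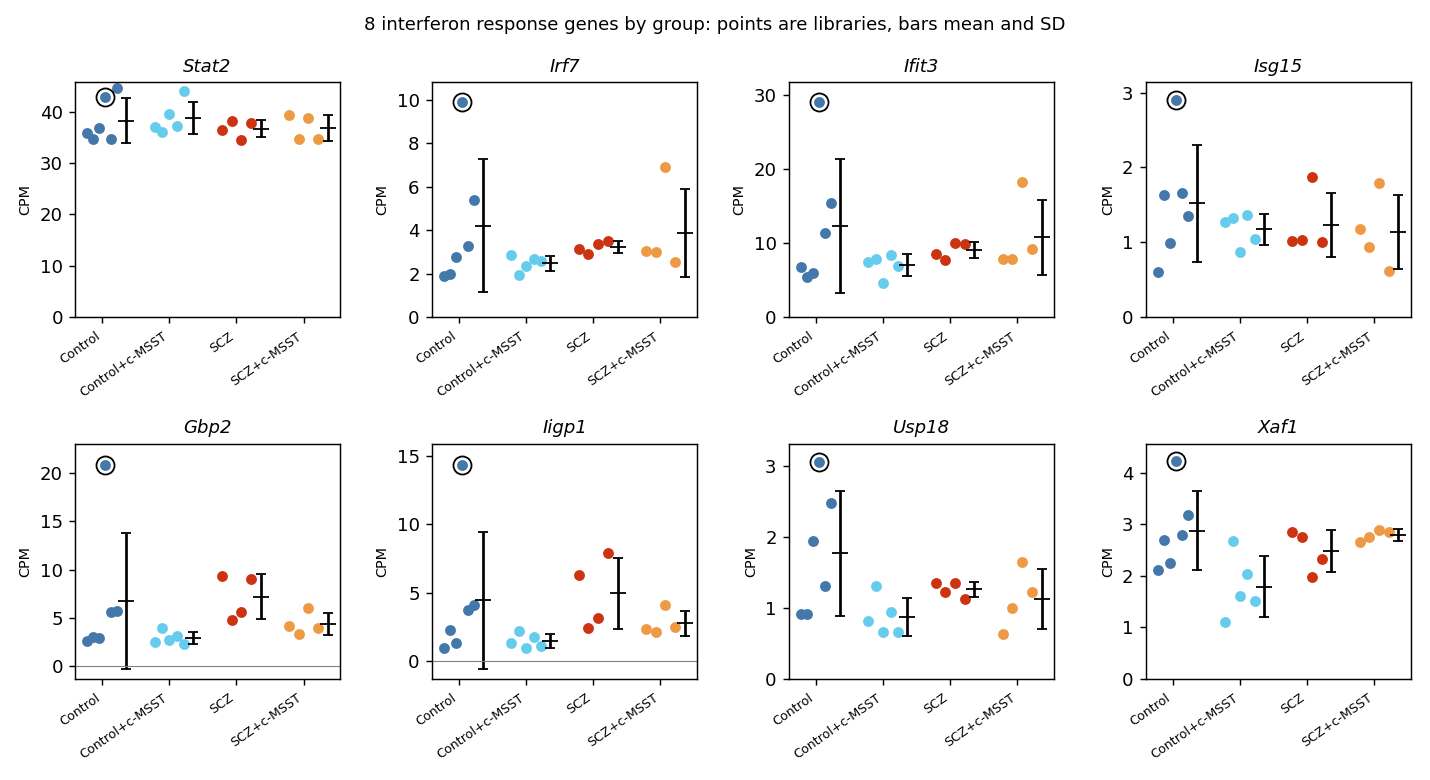
CPM of 8 interferon response genes by group, with 1 point per library and the mean and SD beside the points; Control replicate 4 is circled. Gbp2 and Iigp1 show Control replicate 4 at 20.8 and 14.3 CPM, far above the other Control libraries, while Stat2 shows it inside the Control range.

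The first comparison, SCZ against Control, asks what MK-801 did. None of the 41 interferon response genes passed an adjusted p of 0.05 (edgeR quasi-likelihood test, Benjamini-Hochberg over 16417 genes), and 0% of all genes tested did. Log2 fold changes were below 0 for 35 of the 41 genes (49.9% of all genes), with a median of -0.21, against 0.00 over all genes. No member reached an unadjusted p of 0.05 in either direction, whereas 6.09% of all genes did so higher and 7.43% lower. DESeq2 called 0 members (1.45% of all genes), and limma voom 0. The smallest p belonged to Lgals3bp, with a log2 fold change of -0.53 ± 0.26 (SE, edgeR adjusted p = 0.387). It was followed by Cmpk2 at 0.18 ± 0.10, Ifi35 at -0.34 ± 0.23 and Usp18 at -0.49 ± 0.34 (adjusted p from 0.449 to 0.571).

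Without Control replicate 4 the balance of SCZ against Control changed. Fold changes were then above 0 for 21 genes and below 0 for 20, with a median of 0.02, and still none passed (smallest adjusted p = 0.128, 0.574% of all genes called). That library was picked out by the values of these genes, so a shift upward follows from the choice. An unadjusted p of 0.05 was reached by 5 of the 41 genes, all higher in SCZ (12.2%, against 7.72% of all genes, which did not guide the choice). These were Gbp2 (log2 fold change 0.86 ± 0.27), Iigp1 (0.99 ± 0.42), Igtp (0.74 ± 0.28), Samd9l (0.41 ± 0.19) and Cmpk2 (0.25 ± 0.10), with edgeR adjusted p from 0.128 to 0.289. The 6 GTPases were all above 0 in this fit, Gbp3 at 0.67, Irgm1 at 0.25 and Gbp7 at 0.14 among them, whereas with all libraries Irgm1 was at -0.14 and Gbp7 at -0.26. Of the 13 marker lists, 2 had sums that did not overlap between SCZ and Control. Endothelial markers summed to 274 to 297 CPM in SCZ and 245 to 268 CPM in Control (7 of 8 above 0), and astrocyte markers to 5305 to 5494 CPM and 5692 to 8284 CPM (6 of 8 below 0). T and NK cell markers summed to 18.0 to 30.9 CPM in SCZ and 1.38 to 21.3 CPM in Control, mostly from Cd4, and striatal markers to 1374 to 1830 CPM in SCZ and 139 to 1486 CPM in Control. Choroid plexus markers summed to 24.7 to 37.6 CPM in SCZ and 10.8 to 1831 CPM in Control (8 of 8 below 0). The part of these lists in the result was not tested.

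The second comparison, Control+c-MSST against Control, asks what c-MSST did in saline mice. Again none of the 41 genes passed (edgeR), where 54 of all genes did (0.329%). Log2 fold changes were below 0 for 38 of the 41 genes (52.9% of all genes), with a median of -0.48, against -0.01 over all genes. An unadjusted p of 0.05 was reached by 11 of the 41 genes, all lower in Control+c-MSST (26.8%, against 8.7% of all genes lower and 7.86% higher). The smallest p were those of Xaf1, at -0.68 ± 0.21 (SE, edgeR adjusted p = 0.124), Usp18, at -1.01 ± 0.33 (0.139), Iigp1, at -1.60 ± 0.58 (0.181), and Lgals3bp, at -0.65 ± 0.24 (0.195). The others with an unadjusted p under 0.05 were Gbp2 (-1.21), Gbp3 (-1.10), Gbp7 (-0.86), Ddx58 (-0.40), Rtp4 (-0.88), Parp14 (-0.70) and Zbp1 (-2.22). DESeq2 called 2 of the 41 genes, Iigp1 (-1.61, adjusted p = 0.0420) and Xaf1 (-0.68, adjusted p = 0.0476), and 571 of all genes (3.48%). limma voom called 0 members.

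By role, the 6 GTPases had a median log2 fold change of -0.98 in Control+c-MSST against Control, with 6 of 6 below 0. The 10 antiviral effectors had -0.50 (9 of 10 below 0), the 7 other induced proteins -0.50 (7 of 7) and the 8 sensors and effectors -0.35 (8 of 8). The 5 genes of ISG15 conjugation and ADP-ribosylation had -0.29 (4 of 5), and the 5 signalling genes -0.19 (4 of 5).

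These values moved when Control replicate 4, picked out by these same genes, was left out. Without it the median over the 41 genes was -0.18, 35 genes were below 0, none passed (0.11% of all genes did), and 3 reached an unadjusted p of 0.05 on the lower side (7.32%, against 8.52% of all genes), with 1 on the higher side (2.44%, against 7.25%). The 3 lower genes were Usp18 (-0.79 ± 0.31), Xaf1 (-0.54 ± 0.20) and Lgals3bp (-0.51 ± 0.24), and the higher one was Cmpk2 (0.19 ± 0.09), with edgeR adjusted p from 0.198 to 0.305. Leaving out other Control libraries moved the count the other way, with 24 genes lower at an unadjusted p of 0.05 without Control replicate 1 (58.5%, against 8.92% of all genes) and 19 without Control replicate 2 (46.3%, against 7.31%), and none passing. Without Control replicate 4 the log2 fold change of Gbp2 moved from -1.21 to -0.44, that of Iigp1 from -1.60 to -0.76, that of Igtp from -0.65 to -0.07 and that of Irgm1 from -0.48 to -0.10. Of the marker lists, oligodendrocyte markers summed to 934 to 2914 CPM in Control+c-MSST and 2342 to 4148 CPM in Control (8 of 8 below 0). The 934 CPM belonged to Control+c-MSST replicate 6, and the other libraries of that group had 2132 CPM or more. Choroid plexus markers summed to 11.7 to 18.9 CPM and 10.8 to 1831 CPM (8 of 8 below 0). That Control range came from replicate 2 (1831 CPM) and replicate 3 (192 CPM), with 10.8 to 31.2 CPM in the other Control libraries. Septal markers summed to 47.3 to 53.3 CPM and 47.7 to 128 CPM (6 of 6 below 0), and astrocyte markers to 5724 to 7333 CPM and 5692 to 8284 CPM (8 of 8 below 0). T and NK cell markers summed to 1.54 to 15.3 CPM and 1.38 to 21.3 CPM, and microglial markers to 301 to 400 CPM and 265 to 363 CPM. Cd3d had no count in any Control+c-MSST library. The part of these cells and regions in the result was not tested.

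**Figure D4:**
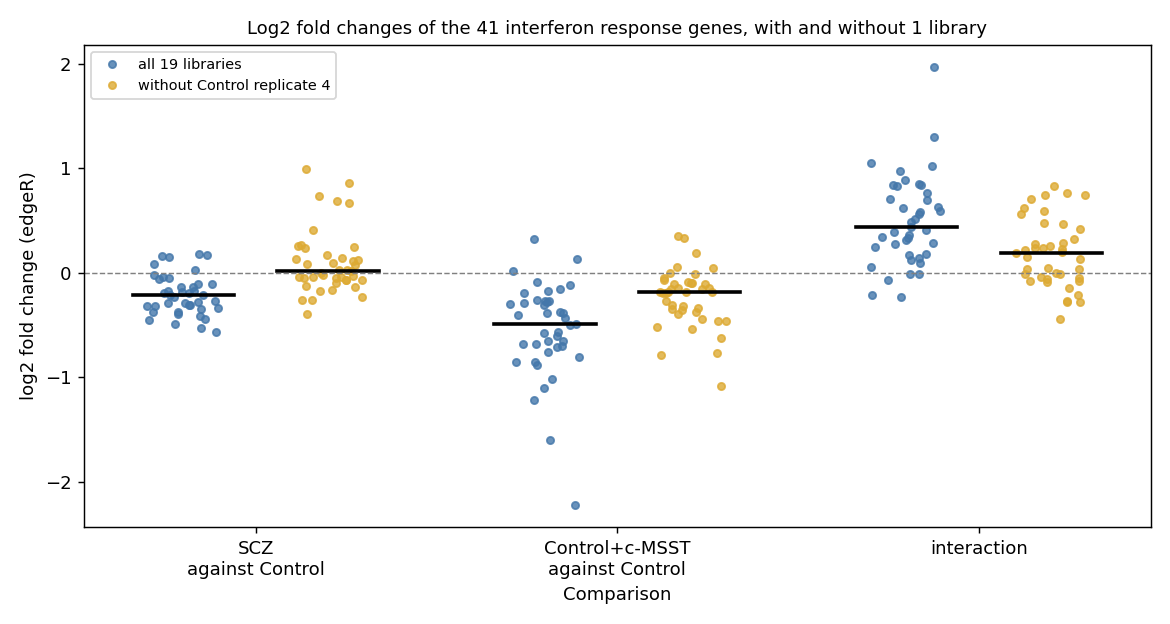
Log2 fold change of each of the 41 interferon response genes (points) with all 19 libraries and without Control replicate 4, for SCZ and Control+c-MSST, each against Control, and for the interaction; black bars are medians. The medians move from -0.21 to 0.02, from -0.48 to -0.18 and from 0.44 to 0.19.

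The third comparison, SCZ+c-MSST against SCZ, asks what c-MSST did in MK-801 mice. None of the 41 genes passed (edgeR, smallest adjusted p = 0.650), and 0% of all genes did. Fold changes were above 0 for 20 genes (47.4% of all genes) and below 0 for 21 (52.6%), with a median of -0.06, against -0.01 over all genes. Irf1 alone reached an unadjusted p of 0.05, with a log2 fold change of -0.42 ± 0.20 (SE, lower; 3.7% of all genes did so). Of the 41 genes, Irf1 was the only one whose groups did not overlap on the lower side (3.78% of all genes) and Herc6 (0.31 ± 0.24, adjusted p = 0.797) the only one on the higher side (4.5%). Mx1 was at 1.12 ± 0.78 and Gbp2 at -0.72 ± 0.52 (adjusted p = 0.776 and 0.790). Of the 6 GTPases, 5 were below 0, with a median of -0.52, and of the 10 antiviral effectors 8 were above 0, with a median of 0.09. Without SCZ+c-MSST replicate 4, the highest library of its group for Irf7, Ifit3 and Gbp2, the median of the 41 genes was -0.24, with 31 below 0 and none passing. With the replicate number as a block, which did not pair these libraries, 34 genes were below 0 and 7 above, with a median of -0.27. Of the 13 marker lists, 3 had sums that did not overlap between SCZ+c-MSST and SCZ. These were blood at 305 to 1295 CPM and 211 to 243 CPM (5 of 6 above 0), choroid plexus at 13.6 to 22.1 CPM and 24.7 to 37.6 CPM (8 of 8 below 0), and astrocytes at 5607 to 6062 CPM and 5305 to 5494 CPM. Of the astrocyte markers only 3 of 8 were above 0 and 5 were below. Slc1a2 had by far the most counts among them, so the astrocyte sum mainly follows 1 gene. Endothelial markers summed to 230 to 292 CPM and 274 to 297 CPM, with 7 of 8 below 0. Septal markers summed to 47.6 to 65.9 CPM and 54.7 to 124 CPM, with 6 of 6 below 0. The part of these cells and regions in the values was not tested.

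The fourth comparison sets SCZ+c-MSST against Control+c-MSST, and so MK-801 against saline where both groups had c-MSST. None of the 41 genes passed (edgeR, smallest adjusted p = 0.353), nor did any other gene (0%). Fold changes were above 0 for 32 of the 41 genes (49.9% of all genes), with a median of 0.26, against 0.00 over all genes. Xaf1 alone reached an unadjusted p of 0.05, at 0.64 ± 0.23 (SE; 5.46% of all genes did so on the higher side). Fitted to only the 2 groups compared, 10 of the 41 genes did so (24.4%, against 6.09% of all genes), and again none passed. Samd9l was at 0.46 ± 0.25, Oas2 at 0.57 ± 0.31 and Irf7 at 0.64 ± 0.40 (adjusted p from 0.525 to 0.584). The 6 GTPases were all above 0, with a median of 0.48. Blood was the only one of the 13 marker lists whose sums did not overlap, at 305 to 1295 CPM in SCZ+c-MSST and 202 to 302 CPM in Control+c-MSST (6 of 6 above 0). Striatal markers (8 of 8 above 0, median log2 fold change 1.12), the 4 tested T and NK cell markers (4 of 4, 1.19) and oligodendrocyte markers (8 of 8, 0.40) were also above 0, with overlapping sums. Their part in the interferon values was not tested. Without SCZ+c-MSST replicate 4 the median of the 41 genes was 0.08, with 24 above 0, the median of all genes was 0.00, and Irf7 was at 0.21, while Xaf1 was at 0.62 ± 0.25 (adjusted p = 0.593).

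The interaction is the difference between the log2 effects of c-MSST with MK-801 and with saline. None of the 41 genes passed (edgeR, smallest adjusted p = 0.605), and 0% of all genes did. The difference was above 0 for 36 of the 41 genes (50.3% of all genes), with a median of 0.44, against 0.00 over all genes. An unadjusted p of 0.05 was reached by 3 genes on the higher side (3.9% of all genes): Xaf1 at 0.85 ± 0.32, Lgals3bp at 0.89 ± 0.37 and Oas2 at 0.98 ± 0.44. Irf7 came next at 1.02 ± 0.56 (adjusted p = 0.719). Without Control replicate 4 the median was 0.19, with 26 genes above 0, and Xaf1 alone reached an unadjusted p of 0.05 (0.71 ± 0.30, adjusted p = 0.542; 4.63% of all genes did so on the higher side). The libraries of each of the 4 groups enter more than 1 comparison, so the values of the comparisons for a gene are not independent of each other.

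The interferons themselves were hardly detected. Of 21 interferon genes in the table, 20 had a count in some library, and the highest count was 48, for Ifnk, an interferon of epithelial tissue at 0.232 FPKM. Ifna6 followed at 0.0166 FPKM. Ifng had no count in 17 of the 19 libraries and Ifnb1 none in 18, Control replicate 4 among them for both. Ifnk, the only interferon gene with enough counts to be tested, had 10 counts in Control replicate 4 and was not called in any comparison.

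The median level of receptors and proximal signalling genes varied little between libraries. The 14 genes on this list had median ratios to their own medians of 0.925 to 1.05 in the 19 libraries, and 1.03 in Control replicate 4. Single genes moved more, with log2 fold changes from -1.14 to 0.79 in SCZ+c-MSST against SCZ, where 3 of the 14 had groups that did not overlap on the higher side (4.5% of all genes). Ifnar1, a chain of the type I receptor, averaged 51.0 FPKM, and Ifngr2, a chain of the interferon gamma receptor, 38.4 FPKM. None of the 14 genes was called in any comparison. Ifnar1 was at -0.23 ± 0.04 on the log2 scale in SCZ+c-MSST against Control+c-MSST (edgeR adjusted p = 0.148), with no overlap between those groups (2.36% of all genes on the lower side). The 19 tested genes of nucleic acid sensing upstream of interferon, such as the RNA editor Adar (45.3 FPKM) and the signalling adaptor Traf3 (17.5 FPKM), had median ratios of 0.950 to 1.08, and none was called.

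Other interferon-stimulated genes, 59 tested and outside the 41, also had their highest values mostly in Control replicate 4. Of these, 37 were highest in that library, and their median ratio was 2.16 there, 1.37 in Control replicate 7 and 1.33 in SCZ replicate 5. Rnf213, a large ubiquitin ligase at 15.9 FPKM, and Nampt, an enzyme of NAD synthesis at 85.0 FPKM, were the most abundant. None of the 59 was called in any comparison. In Control+c-MSST against Control, 55 were below 0 (52.9% of all genes were), with a median of -0.45, and 20 of them reached an unadjusted p of 0.05 (33.9%, against 8.7% of all genes). Without Control replicate 4, 47 were below 0 (52.3% of all genes), with a median of -0.27, and 8 reached it (13.6%, against 8.52%). In SCZ+c-MSST against Control+c-MSST, 47 of the 59 were above 0 (49.9% of all genes), with a median of 0.30. There 4 reached an unadjusted p of 0.05 on the higher side (5.46% of all genes), and 3 did not overlap (2.3%).

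Class I antigen presentation genes, which are also induced by interferon, varied between libraries too, but did not share 1 highest library. Among them, Tap1, Tapbp and Psmb9 were highest in Control replicate 4, and B2m, H2-D1 and H2-Q7 in Control replicate 7. H2-K1, H2-T23 and Psmb8 were highest in Control replicate 5, and H2-Q4 and H2-Q6 in SCZ replicate 5. The median ratio of 16 genes was 1.52 in Control replicate 4, 1.44 in SCZ replicate 5, 1.42 in Control replicate 5 and 0.602 in Control replicate 1. B2m, the light chain of class I molecules (15.7 FPKM), had 51.1, 47.9, 43.9, 52.7 and 45.5 CPM in Control+c-MSST and 62.5, 64.6, 79.7 and 65.6 CPM in SCZ+c-MSST, which did not overlap (2.3% of all genes on the higher side). Its log2 fold change between these groups was 0.50 ± 0.17 (edgeR adjusted p = 0.349). Between the same groups 13 of the 16 genes were above 0 (49.9% of all genes), with a median of 0.46. Of the 16, 5 reached an unadjusted p of 0.05 on the higher side (5.46% of all genes), and 4, B2m among them, did not overlap (2.3%). In Control, B2m had 48.3, 78.8 and 104 CPM as lowest, median and highest. H2-D1, a class I heavy chain (19.4 FPKM), was at -0.39 ± 0.28 in Control+c-MSST against Control (adjusted p = 0.525). None of the 16 was called, and in that comparison 13 of the 16 were below 0 (52.9% of all genes were), with a median of -0.51, 6 of them with an unadjusted p under 0.05 (37.5%, against 8.7% of all genes). Without Control replicate 4, 11 were below 0 (52.3% of all genes), with a median of -0.28, and 2 reached that p (12.5%, against 8.52%).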

How the data were processed

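RNA was measured in 19 libraries of mouse left prelimbic cortex, by a stranded library kit on total RNA (per the labels' protocols). The authors deposited 1 table of estimated counts per gene and 1 table of FPKM values. fastp 0.19.5, STAR 2.7.7a, Picard 2.18.29, StringTie 1.3.5 and mm10 are named, per the submitters' processing notes; the order of steps, the annotation and the use of strand are not given in the sources used here. All deposited count values were whole, so rounding changed none, and they were treated as estimated counts. Authors' FPKM values, scaled to gene length and depth, were used for levels between genes.

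Groups came from the titles. Of 20938 genes, 16417 were kept by filterByExpr. edgeR 4.0.16 (R 4.3.3) with TMM fitted 1 coefficient per group to all 19 libraries by quasi-likelihood (robust), and 5 contrasts were tested with Benjamini-Hochberg adjustment over all genes at 0.05. The fit was tested on simulated data. CPM uses TMM-scaled totals. No score, set test or random list was used. The members, roles and lists were chosen with earlier results of these data known.

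Levels in all 4 groups are given for the 4 smallest p of each comparison, the 3 highest FPKM means and Irf7, Irf9, Stat2, Isg15, Ifit3, Usp18 and Irf1. They are given library by library, except that Control is given as lowest, median and highest for Stat2, Irf9, Irf1, Cmpk2, Samd9l, Isg15 and Ifi35. Of other lists the 2 highest FPKM means are named. Rsad2, the genes named for an unadjusted p or a leave-out value, Cxcl10, Gbp4, Gbp10 and Tgtp1 were named after their values were seen. So were the class I genes, other than B2m and H2-D1, that are named for their highest library. Promoters are those of RefSeq. Alternatives were DESeq2 1.42.0, limma 3.58.1 with voom and quality weights, limma on log2(FPKM + 1) and log2(FPKM + 0.1), DESeq2 size factors, upper-quartile scaling, no filter, a filter of 1 mean CPM, only the groups compared, the replicate number as a block, and each library left out. Same-numbered libraries did not deviate together (r from -0.0958 to 0.139 over 19 pairs, 1 pair over 0.1). A count of 0 allows up to 3 counts, which is 0.0349 to 0.0620 CPM.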

Additional observations from a re-analysis of the deposited data

Results flagged for a closer look

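Within each group the highest and lowest library of each of the 41 genes were compared with the next library by Dixon's gap over the range, in 164 gene and group pairs. The gap passed the 95% limit in 19 of them (11.6%). For normally distributed values about 1 in 20 would pass, but CPM were compared without a log scale, so that rate need not hold here. The genes are also not independent of each other. Of the 19, 10 were in Control replicate 4.

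In Control replicate 4 the 6 GTPases stood above the next Control library: Gbp2 at 20.8 CPM (next 5.69), Gbp3 at 22.4 CPM (9.70), Gbp7 at 20.5 CPM (9.64), Igtp at 18.3 CPM (7.17), Irgm1 at 24.2 CPM (12.1) and Iigp1 at 14.3 CPM (4.12). So did the sensors Ifih1 at 13.6 CPM (8.32) and Zbp1 at 3.98 CPM (1.19), the radical enzyme Rsad2 at 6.47 CPM (2.96) and the tethering protein Bst2 at 4.36 CPM (1.96).

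In SCZ+c-MSST replicate 4, Ifit3 stood at 18.2 CPM (next 9.25), Irf7 at 6.90 CPM (3.06), Oasl2 at 9.01 CPM (3.55), Ifi27 at 12.8 CPM (9.65) and Rtp4, a chaperone of receptors, at 3.63 CPM (1.60). No GTPase stood apart in that library.

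In SCZ, Ifit1 was at 5.00 CPM (next 4.41) and Rsad2 at 3.31 CPM (2.04) in replicate 1, and Isg15 at 1.87 CPM (1.03) in replicate 3. In SCZ+c-MSST replicate 2, Ifih1 was low at 5.82 CPM, where the next library had 8.51 CPM.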

How the results depend on the processing

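Under edgeR 0 of the 41 genes were called in each of the 5 comparisons with every library left out in turn. Of the other settings, DESeq2 called 2 in Control+c-MSST against Control and 0 elsewhere, and every remaining setting called 0. The smallest adjusted p over the 41 genes ran from 0.0632 to 0.947 with 1 library left out.

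Medians of the log2 fold change with 1 library left out ran from -0.31 to 0.02 in SCZ against Control, from -0.60 to -0.18 in Control+c-MSST against Control, from -0.24 to 0.02 in SCZ+c-MSST against SCZ, from 0.08 to 0.31 in SCZ+c-MSST against Control+c-MSST and from 0.19 to 0.59 in the interaction. Under the other settings they ran from -0.22 to 0.02, -0.49 to -0.11, -0.27 to -0.03, 0.04 to 0.26 and 0.08 to 0.44. On the FPKM scale, where a pseudocount shrinks low genes, the median of all genes itself moved to as low as -0.13 (interaction).

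The replicate numbers did not pair the libraries. With them as a block 0 genes were called, and the medians were 0.02, -0.46, -0.27, 0.25 and 0.21 in the order above. In SCZ against Control, 21 genes were then above 0 and 20 below, in place of 6 and 35, and in SCZ+c-MSST against SCZ 7 and 34, in place of 20 and 21. SCZ has no replicate 4, so under the block Control replicate 4 and SCZ+c-MSST replicate 4 are not set directly against an SCZ library. Without the block, leaving out Control replicate 4 gave 21 and 20, and leaving out SCZ+c-MSST replicate 4 gave 10 and 31. The cause was not tested. Control+c-MSST replicate 6, alone with its number, carries no weight there. The interaction uses all groups, so the fit to only the groups compared was not run for it. Of the fold changes of named genes that were refitted under these settings, 2 passed the threshold that they missed in edgeR (Iigp1 and Xaf1 in Control+c-MSST against Control, under DESeq2). The sign changed under some setting for the 6 GTPases in SCZ against Control and for none of the others. With 1 library left out, the log2 fold change ran from -0.077 to 0.86 for Gbp2, from -0.17 to 0.99 for Iigp1, from -0.017 to 0.74 for Igtp, from -0.17 to 0.67 for Gbp3, from -0.26 to 0.25 for Irgm1 and from -0.43 to 0.14 for Gbp7. Each was highest without Control replicate 4. Irgm1, at -0.14 in edgeR, was at 0.054 on the log2(FPKM + 0.1) scale and at 0.20 with the block.

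Counts of 0 to 93 for Mx1 and 0 to 228 for Zbp1 limit their values.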

Other observations

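A few interferon-stimulated genes outside the 41, chosen after their values were seen, had a highest library further above their own 19-library median than any of the 41 except Zbp1. Gbp10, a guanylate-binding protein, had 8.06 CPM in Control replicate 4, which was 11.4 times its 19-library median, and 1.91 CPM in SCZ+c-MSST replicate 4, the next highest. Gbp4 had 33.5 CPM in Control replicate 4 and 25.0 CPM in SCZ replicate 5, where its median was 3.44 CPM. Tgtp1, an immunity-related GTPase, had 11.2 CPM in Control replicate 4 and 5.65 CPM in SCZ replicate 5, against a median of 1.23 CPM.

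Cxcl10, a chemokine for T cells, was highest in another library. It had 3.12 CPM in SCZ+c-MSST replicate 4 and 0.663 CPM in Control replicate 4, and its other SCZ+c-MSST libraries had 0.358, 0.0552 and 0.758 CPM. SCZ libraries had 0.151, 0.121, 0.217 and 0.0929 CPM. Its log2 fold change in SCZ+c-MSST against SCZ was 2.87 ± 1.02 (SE, edgeR adjusted p = 0.527), with overlap between the groups.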
